A study of Mus musculus with 6 samples.

Results

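The MHC class I genes described here are 8 heavy chain genes (H2-K1, H2-D1, H2-Q4, H2-Q6, H2-Q7, H2-T22, H2-T23 and H2-M3), B2m, which encodes their common light chain, and Nlrc5, which encodes their transactivator. They were taken by gene symbol from the deposited table, which held all 10 of them among 55401 genes. RNA was sequenced from mouse macrophages grown from the marrow of C57BL/6 leg bones for 7 days in 40 ng/mL M-CSF and 10% serum. Of the 6 libraries, 3 are labelled Mettl3 knockout (KO; genotype Mettl3-/-) and 3 are labelled wild type (WT). Mettl3 encodes the enzyme subunit that writes N6-methyladenosine on messenger RNA, and the series asks how transcripts differ between these genotypes. The labels give no age, sex, promoter or Cre line for the knockout, name no treatment after the 7 days, and do not say whether replicates came from separate mice. A p-value here thus reflects variation among 6 libraries, and that variation may be technical.

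A class I molecule is a heavy chain paired with beta-2 microglobulin that holds a short peptide and shows it at the cell surface. T cells and natural killer cells read it, and macrophages carry it at rest and raise it after interferon. NLRC5 has no DNA-binding domain of its own. It joins a complex of RFX factors, CREB-family factors and NF-Y that sits on the X and Y boxes of class I promoters, while NF-kB and interferon regulatory factors bind sites further upstream.

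Promoter sequences are shown for 6 genes because their windows hold some or all of these elements and because their transcripts differed in direction and size between the groups. The stretches are from RefSeq (GRCm38.p6, a patch of the mm10 build) and run 5′ to 3′ on the strand of the gene. Capitals mark matches to the motifs listed after the sequences. They belong to the classical genes H2-K1 (chr17:34000353-34000464, minus strand) and H2-D1 (chr17:35262917-35263051, plus strand), the Qa genes H2-Q6 (chr17:35424671-35424805, plus strand) and H2-Q7 (chr17:35439016-35439149, plus strand), H2-T23 (chr17:36032743-36032830, minus strand) and B2m (chr2:122147542-122147644, plus strand).
H2-K1: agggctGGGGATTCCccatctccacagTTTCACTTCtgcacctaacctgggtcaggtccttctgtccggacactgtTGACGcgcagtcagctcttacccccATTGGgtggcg
H2-D1: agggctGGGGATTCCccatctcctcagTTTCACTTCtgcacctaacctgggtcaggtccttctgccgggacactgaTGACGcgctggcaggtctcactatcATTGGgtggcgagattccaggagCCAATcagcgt
H2-Q6: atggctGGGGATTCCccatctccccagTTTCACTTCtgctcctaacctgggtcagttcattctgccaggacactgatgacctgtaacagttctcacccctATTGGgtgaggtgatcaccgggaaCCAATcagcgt
H2-Q7: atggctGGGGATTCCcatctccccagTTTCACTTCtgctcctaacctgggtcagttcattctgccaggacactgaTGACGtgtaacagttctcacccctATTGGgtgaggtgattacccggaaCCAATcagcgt
H2-T23: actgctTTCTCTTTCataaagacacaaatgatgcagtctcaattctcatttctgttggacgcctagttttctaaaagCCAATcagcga
B2m: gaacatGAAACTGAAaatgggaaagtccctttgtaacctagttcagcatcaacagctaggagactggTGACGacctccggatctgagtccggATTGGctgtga

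Motifs were searched on both strands of windows from 250 bases before to 50 bases after the start, and 9 of the 10 genes had such a window (for H2-K1 the first of 2). The Y box CCAAT was found in all 9 windows, against 37.41% of all 32851 promoter windows. The X2 core TGACG was found in 7 of 9, against 20.81%. The windows of H2-Q6 and H2-T23 held no TGACG. The count takes a match at any place in the window: in H2-T22 it stood at -22, after every Y box match, and in H2-Q4 it stood between Y box matches. A kappa B core, GGGGATTCC, was found in the windows of H2-K1, H2-D1, H2-Q6 and H2-Q7, against 0.25% of all windows. These 4 windows are alike: aligned in pairs, 69.0% to 85.0% of their 300 bases matched, so the 4 matches are not independent.

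The interferon-stimulated response element GAAANNGAA was found in the windows of H2-T22, H2-T23 and B2m, against 8.56% of all. The related form GAANNGAAA, added after the promoters were read, was found in the other 6 windows, against 7.52%. Of these, H2-K1, H2-D1, H2-Q4, H2-Q6 and H2-Q7 are alike (68.7% to 85.0% between pairs), so their matches are not independent either. The gamma-activated site TTCNNNGAA was found in H2-M3 alone, against 8.3%. No matches overlapped in these 9 windows. In H2-K1, H2-D1 and B2m, 20 bases separated the X2 core from the next Y box match, and in H2-Q7 19 bases did. In each of these that match read ATTGG, the Y box on the other strand. H2-Q4 had 13 bases and H2-M3 had 5, but there the next match read CCAAT, so these distances were not measured to ATTGG as the others were. H2-M3, with TGACG at -46 and CCAAT at -36, also had ATTGG at -21. Measured to that ATTGG, H2-M3 had the same 20 bases as H2-K1, H2-D1 and B2m. In H2-Q4 the TGACG at -73 lay after the ATTGG at -79. These matches describe letters in a window and say nothing of binding.

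**Figure D1:**
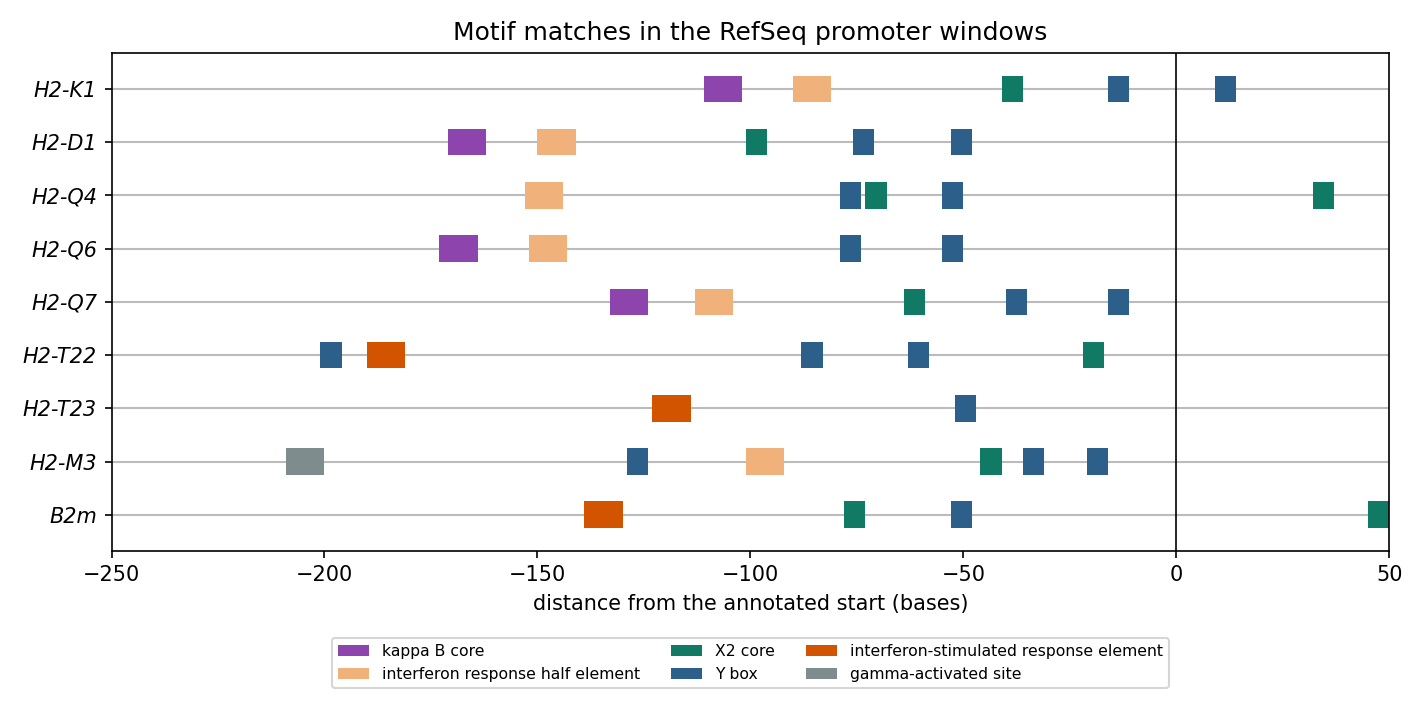
Motif matches in the promoter windows of 9 class I genes, by distance from the annotated start in bases; each coloured block is 1 match on either strand. The kappa B core stands upstream in H2-K1, H2-D1, H2-Q6 and H2-Q7, and every window has a Y box match.

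Mettl3, as a value for the whole gene that does not show single exons, did not follow the labels. It read 2.50, 2.56 and 2.93 FPKM (fragments per kilobase of exon, scaled to library size) in libraries labelled KO, against 2.62, 2.91 and 2.26 in WT libraries (log2 fold change 0.02, edgeR adjusted p = 0.93), so directions below are those of the libraries labelled KO. Library totals were 68145877 to 77997742 estimated counts for libraries labelled KO and 67280390 to 68658821 for WT. Between libraries of 1 group the coefficient of variation of the class I genes ran from 0.205% to 3.33%.

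In the libraries labelled KO, 8 of the 10 genes were higher and 1 was lower, where over all 16256 tested genes 12.7% were called in either direction, 7.01% higher and 5.67% lower. Called means that edgeR's quasi-likelihood test gave an adjusted p below 0.05. The 10 genes and the lists below were chosen with earlier results of these data known, so their counts beside these shares are a description. The class I genes are abundant, and 27% of the 5246 genes whose mean log2 CPM reached 5 were called. The rises were largest for H2-Q7, H2-Q6 and H2-K1, Nlrc5 rose with them, and B2m fell. With any 1 library left out 5 were called higher (H2-K1, H2-Q4, H2-Q6, H2-Q7 and Nlrc5) and B2m lower. The FPKM values of the groups did not overlap for any of the 10 genes, as for 33.8% of tested genes. The median log2 fold change was 0.17, against -0.00495 over all tested genes. In bulk RNA a change in the make-up of the cells and a change per cell cannot be told apart.

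**Figure D2:**
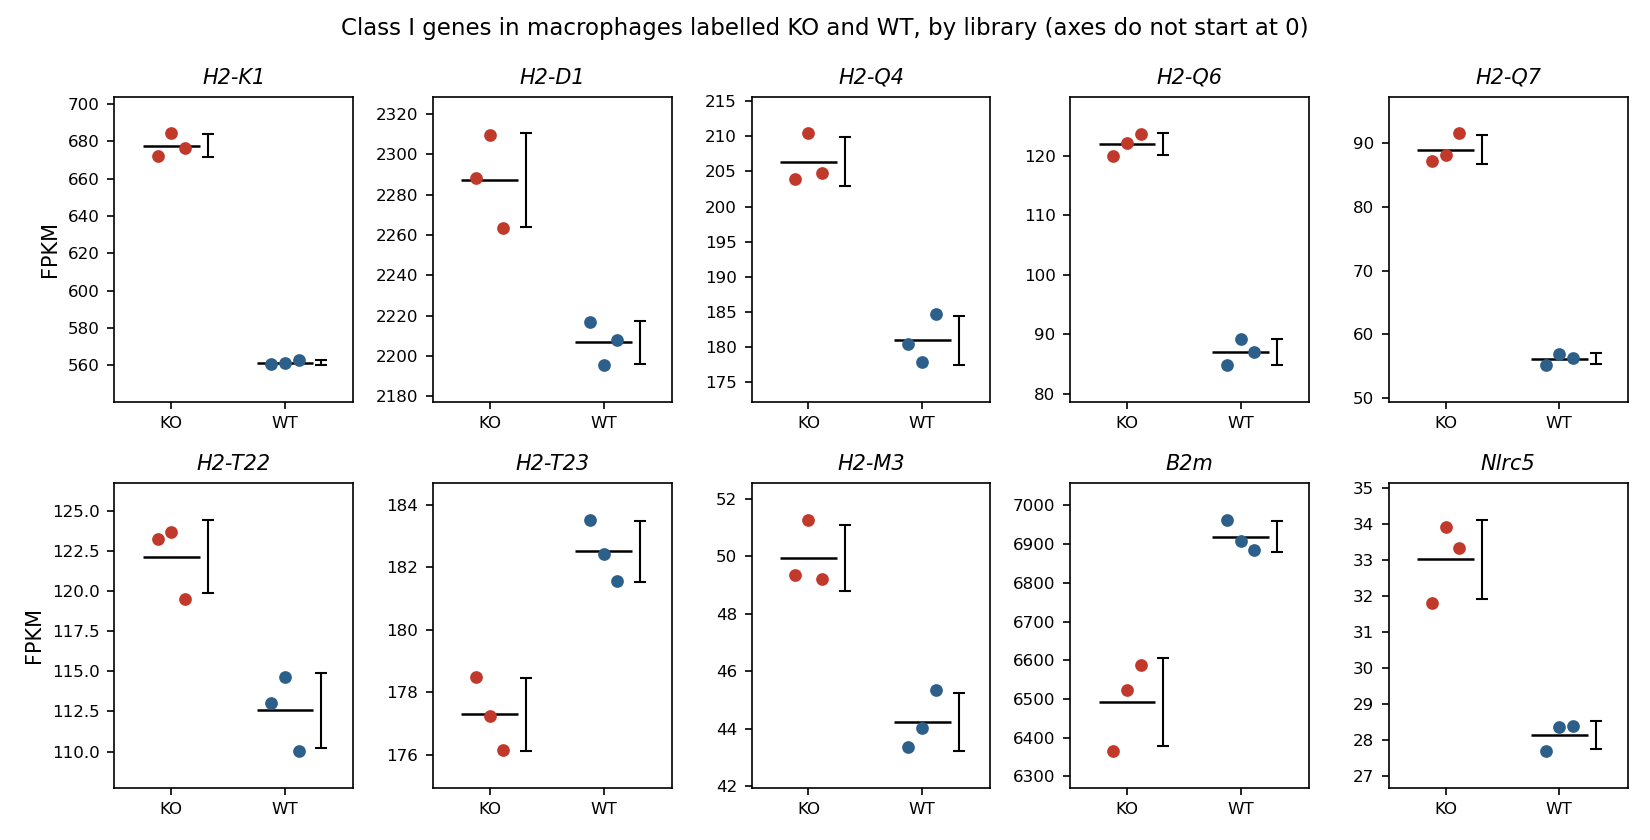
FPKM of each class I gene in every library, labelled KO left of WT; points are libraries, lines are means and bars are SD (n = 3), and the axes do not start at 0. Libraries labelled KO lie above WT for 8 genes and below it for H2-T23 and B2m.

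The classical heavy chains, which present peptides to CD8 T cells, differed in how far they moved. H2-K1 (ENSMUSG00000061232; mm10 chromosome 17, 33996017 to 34000347, minus strand) stood at 672, 684 and 676 FPKM in libraries labelled KO, against 561, 561 and 563 in WT. Its lowest library labelled KO stood well above its highest WT library. The means were 678 ± 6.20 and 561 ± 1.15 FPKM (SD, n = 3 each), and edgeR put the log2 fold change at 0.25 with an SE of 0.011 (adjusted p = 6.79e-05). H2-D1 (ENSMUSG00000073411; chromosome 17, 35262730 to 35267499, plus strand) read 2288, 2309.8 and 2264 FPKM in libraries labelled KO, against 2217, 2196 and 2208 in WT. These groups stand apart by a narrow margin. The log2 fold change of H2-D1 was 0.04 (95% limits 0.01 and 0.06, edgeR adjusted p = 0.0466). That call was lost in all 15 alternatives, including each of the 6 fits that left out 1 library (edgeR adjusted p from 0.0535 to 0.12). The ratio of H2-K1 to H2-D1 FPKM was 0.294, 0.296 and 0.299 in libraries labelled KO, against 0.253, 0.255 and 0.255 in WT, so the groups did not overlap.

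H2-Q7 and H2-Q6 moved most of the 10 genes. They encode Qa-2 antigens, which are held in the membrane by a lipid anchor. H2-Q7 (ENSMUSG00000060550; chromosome 17, 35439155 to 35443773, plus strand) read 87.2, 88.1 and 91.5 FPKM in libraries labelled KO, against 55.3, 57.0 and 56.2 in WT. Its log2 fold change was 0.65 (SE 0.027, edgeR adjusted p = 5.85e-05), a ratio of 1.57 with 95% limits of 0.57 and 0.72 on the log2 scale. H2-Q6 (ENSMUSG00000073409; chromosome 17, 35424850 to 35430055, plus strand) read 120.0, 122 and 124 FPKM in libraries labelled KO, against 84.9, 89.2 and 87.0 in WT. Each library labelled KO stood above each WT library by a wide margin, and edgeR put the log2 fold change at 0.47 with an SE of 0.028 (adjusted p = 0.000259). These 2 calls held in all 15 alternatives. H2-Q4 (ENSMUSG00000035929; chromosome 17, 35379617 to 35385290, plus strand), a relative of the same cluster, read 204, 210.4 and 205 FPKM in libraries labelled KO, against 180.5, 178 and 185 in WT. It rose by 0.17 on the log2 scale (SE 0.022, edgeR adjusted p = 0.00433). Its exons share 496 bases with Gm11131 on the opposite strand.

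Neighbouring Qa genes share sequence, so their reads can be assigned to one or the other. The symbols H2-Q8 and H2-Q9 were not in the deposited table, so any reads from these Qa genes have no count under those names. Whether such reads were counted under H2-Q6 or H2-Q7 was not tested. Of the 50-base stretches of the longest coding transcript of H2-Q7, 34.9% also occur in another gene, 19.3% in H2-Q6 and 15.2% in H2-Q5. For H2-Q6 the share was 32%, with 13.9% in H2-Q7, and for H2-Q4 it was 24.3%, against 8.8% for H2-K1 and 14.3% for H2-D1. At 100 bases the shares were 16.4% for H2-Q7, 10.8% for H2-Q6 and 2.7% for H2-Q4. H2-Q6 and H2-Q7 also share 50-base stretches with genes outside the Qa sums given next (8.3% of H2-Q7 with H2-D1, 6.0% of H2-Q6 with H2-Q5), and the part of read assignment in these values was not tested. H2-Q6 and H2-Q7 together took 697, 711 and 729 CPM in libraries labelled KO, against 465, 483 and 472 in WT, a ratio of 1.5. With H2-Q4 added the sums were 1290.4, 1327 and 1326.5 CPM in libraries labelled KO, against 992, 1003 and 1009 in WT, a ratio of 1.31.

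The nonclassical T and M genes moved little and not all one way. H2-T22, whose product is bound by gamma delta T cells, read 123.3, 123.7 and 119.5 FPKM in libraries labelled KO, against 113, 115 and 110.0 in WT. H2-M3, which presents formylated peptides such as those of bacteria, read 49.4, 51.3 and 49.2 FPKM in libraries labelled KO, against 43.4, 44.0 and 45.3 in WT. For both genes every library labelled KO was above every WT library. The log2 fold changes were 0.10 for H2-T22 (SE 0.024, edgeR adjusted p = 0.0403) and 0.16 for H2-M3 (SE 0.036, edgeR adjusted p = 0.0368). Each call was lost when any 1 library was left out, with edgeR adjusted p from 0.0572 to 0.118 for H2-T22 and from 0.0618 to 0.115 for H2-M3. H2-T22 (ENSMUSG00000056116; chromosome 17, 36037128 to 36042705, minus strand) shares 44.7% of its 50-base stretches with other genes, 37.9% with H2-T10. It also shares 1003 exonic bases with A930015D03Rik on the opposite strand, and the strand setting of the counting is not given in the sources used here. H2-M3 (ENSMUSG00000016206; chromosome 17, 37270220 to 37274484, plus strand) shares 0.6%.

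H2-T23 encodes the Qa-1 heavy chain, which shows leader peptides of other class I chains to an inhibitory receptor of natural killer cells. It read 179, 177 and 176 FPKM in libraries labelled KO, against 184, 182 and 182 in WT. All 3 libraries labelled KO were below all 3 WT libraries, but the difference did not pass the threshold (log2 fold change -0.06, SE 0.015, edgeR adjusted p = 0.0542). Among genes with a mean FPKM of at least 1 alone it did pass, as lower (edgeR adjusted p = 0.0253). H2-T23 (ENSMUSG00000067212; chromosome 17, 36029773 to 36032855, minus strand) shares 28.8% of its 50-base stretches with other genes.

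B2m, the light chain that heavy chains need to fold and reach the surface, fell. B2m (ENSMUSG00000060802; chromosome 2, 122147686 to 122153083, plus strand) read 6366, 6523 and 6587 FPKM in libraries labelled KO, against 6963, 6909 and 6885 in WT. The means were 6492 ± 114 and 6919 ± 40.0 FPKM (SD, n = 3 each), and edgeR put the log2 fold change at -0.11 with an SE of 0.014 (adjusted p = 0.00442). B2m stood at place 3 of all genes by mean FPKM in libraries labelled KO and at place 4 in WT. Lyz2 stood above B2m in WT libraries (mean 14189 FPKM) and below it in libraries labelled KO (mean 6012 FPKM), so the better place is no rise of B2m. None of its 50-base stretches occurs in another annotated gene. The call held in all 6 fits with 1 library left out (edgeR adjusted p from 0.00651 to 0.0232).

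Nlrc5, the class I transactivator, rose. Nlrc5 (ENSMUSG00000074151; chromosome 8, 94434356 to 94527272, plus strand) read 31.8, 33.9 and 33.3 FPKM in libraries labelled KO, against 27.7, 28.4 and 28.4 in WT. The lowest library labelled KO was above the highest WT library. The log2 fold change was 0.21 (95% limits 0.13 and 0.30, edgeR adjusted p = 0.00663), and the call held with any 1 library left out (edgeR adjusted p from 0.00639 to 0.0315). None of its 50-base stretches occurs in another gene, and 78 of its exonic bases overlap 9330175E14Rik on the opposite strand. Permuting the 6 library labels exactly (two-sided) gave p = 0.1 for each of the 10 genes, and 3 against 3 allows no smaller value.

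**Figure D3:**
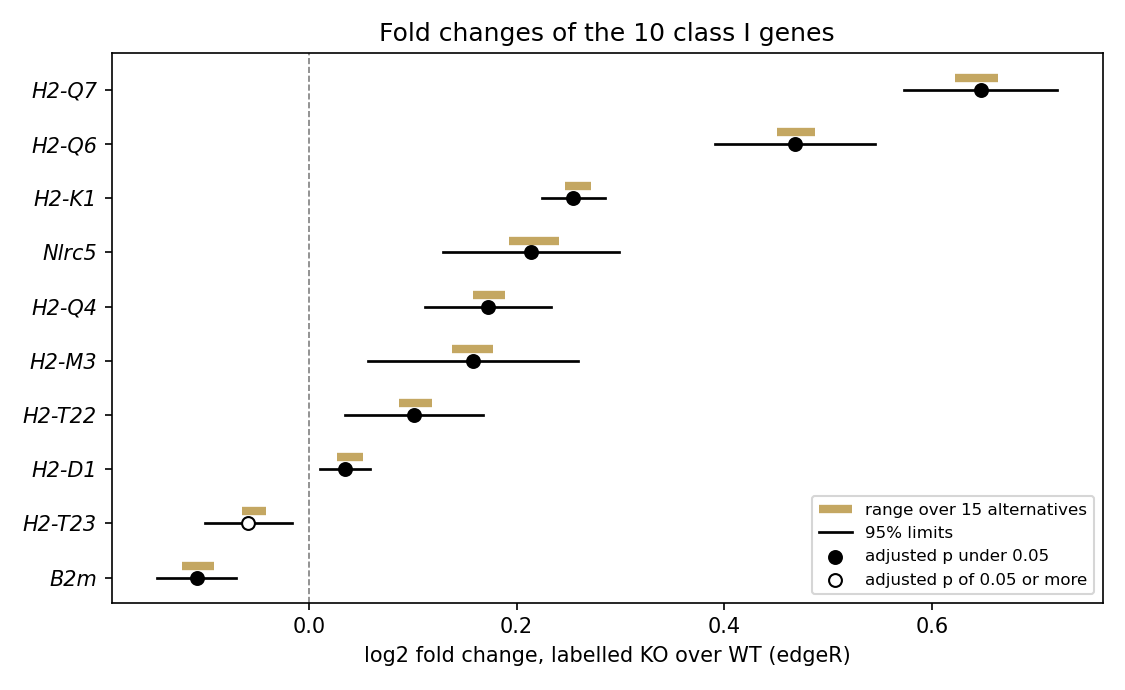
Log2 fold changes of the 10 class I genes, labelled KO over WT (edgeR), with 95% limits as black lines and the range over 15 alternatives as gold bars; filled points passed the threshold. H2-Q7 and H2-Q6 lie furthest to the right, H2-D1 lies close to 0, and B2m and H2-T23 lie below it.

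By level, B2m stood first in both groups, followed by H2-D1 and H2-K1, and H2-M3 and Nlrc5 stood last. In libraries labelled KO, H2-Q4 (206 FPKM) came before H2-T23 (177 FPKM), while in WT libraries the ranges of H2-T23 (182 to 184 FPKM) and H2-Q4 (178 to 185 FPKM) overlapped. H2-T22 and H2-Q6 had overlapping ranges in libraries labelled KO, at means of 122 FPKM each, and stood apart in WT libraries, at 113 and 87.1 FPKM. No other neighbours in the order overlapped. These FPKM values divide by the length of all annotated exonic bases of a gene, retained introns included, which is 4265 bases for H2-Q7 but 2085 for H2-Q6. Rescaled to the longest coding transcript (1523 and 2085 bases), a scale chosen after seeing the data, H2-Q7 stood above H2-Q6 in both groups, at 249 and 122 FPKM in libraries labelled KO and 157 and 87.1 FPKM in WT.

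The make-up of the heavy chain transcripts differed between the groups. H2-D1 made up 61.3% ± 0.187 of the summed heavy chain FPKM in libraries labelled KO, against 64.3% ± 0.161 in WT (SD, n = 3 each). H2-K1 made up 18.2% ± 0.103 in libraries labelled KO, against 16.4% ± 0.0475 in WT. The shares of H2-Q7 were 2.38% ± 0.0742 in libraries labelled KO and 1.64% ± 0.0288 in WT. The shares depend on the length used: on longest coding transcripts H2-Q7 made up 4.66% in libraries labelled KO and 3.24% in WT, and H2-D1 52.5% in libraries labelled KO and 55.8% in WT. H2-T22 kept overlapping shares, 3.23% to 3.31% in libraries labelled KO and 3.20% to 3.35% in WT. Summed heavy chain FPKM over B2m FPKM was 0.585, 0.578 and 0.562 in libraries labelled KO, against 0.494, 0.495 and 0.499 in WT. The groups did not overlap, and the ratio of their means was 1.16. These sums are descriptions of the chosen genes and carry no test.

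**Figure D4:**
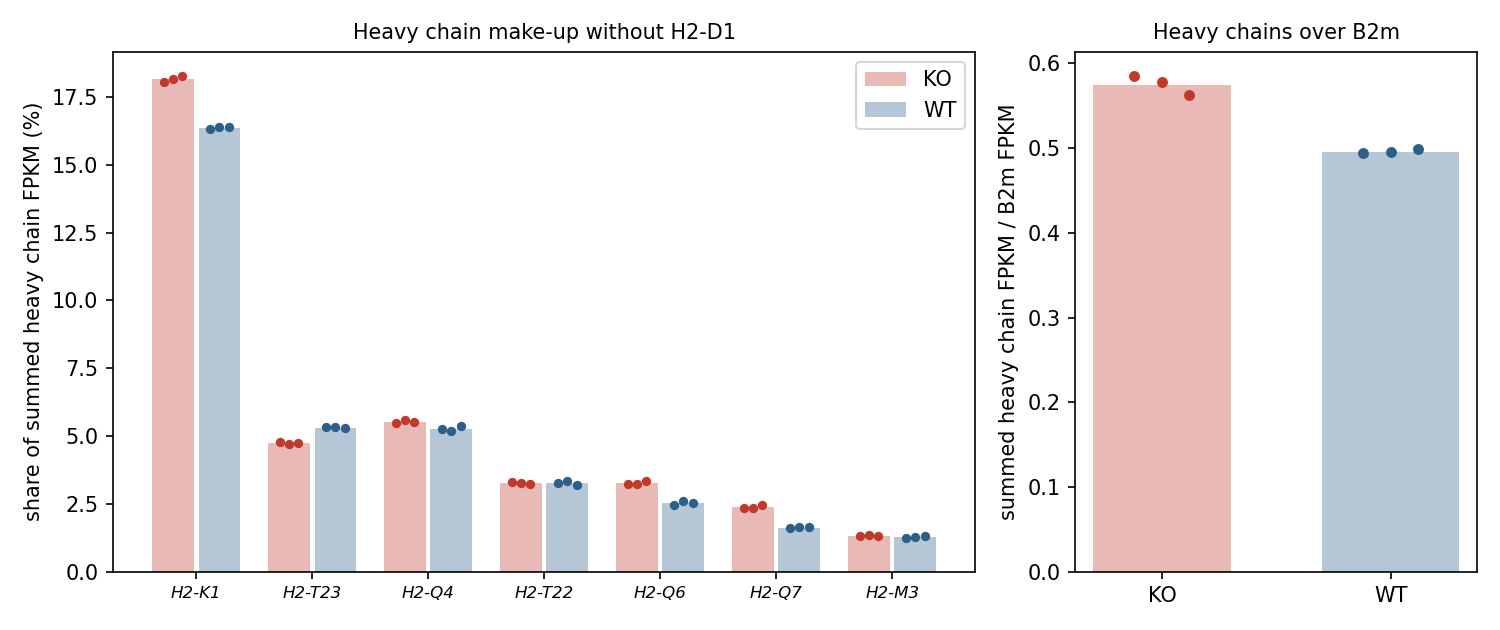
Left, share of each heavy chain gene other than H2-D1 in the summed heavy chain FPKM, in percent, labelled KO left of WT; right, summed heavy chain FPKM over B2m FPKM. Bars are means and points are libraries (n = 3); the ratio to B2m lies between 0.562 and 0.585 in libraries labelled KO and between 0.494 and 0.499 in WT.

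Genes that supply, carry and load class I peptides were taken as a list. Those that carry or load all passed as higher, but of those that supply peptides only Psmb8 did (log2 fold change 0.13, edgeR adjusted p = 0.0198). Psmb10, Psme2 and Erap1 leaned higher and did not pass, and Psmb9 (-0.02) and Psme1 (-0.12) leaned lower and did not pass. Psmb8 lost its call in 4 of the fits that left out 1 library, and Canx, a chaperone, lost its call in 5. Of 13 such genes, 8 passed as higher in the libraries labelled KO and 0 as lower (5 did not pass), beside 7.01% higher and 5.67% lower over all tested genes. Among abundant genes, whose mean log2 CPM reached 5, 27% passed in either direction. The median log2 fold change of the 13 genes was 0.19. With any 1 library left out 6 to 7 passed as higher, and 2 did with a minimum fold of 1.2. Calr, a chaperone of the loading complex, averaged 275 ± 5.96 FPKM in libraries labelled KO and 202 ± 3.11 FPKM in WT (SD, n = 3; log2 fold change 0.43, edgeR adjusted p = 0.000132). Its partner Pdia3 rose by 0.36 (edgeR adjusted p = 0.00016). Tapbp, which encodes the tapasin that bridges heavy chains to the peptide transporter, rose by 0.19 (edgeR adjusted p = 0.00473). Tap2, a transporter subunit, read 47.6, 48.3 and 48.8 FPKM in libraries labelled KO, against 29.9, 34.7 and 35.8 in WT (log2 fold change 0.51, edgeR adjusted p = 0.00497).

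Among further class I and class I-like genes, 22 of 31 listed symbols were found in the table and 13 were expressed enough to be tested. Of these, 5 passed as higher and 0 as lower, beside 7.01% and 5.67% over all tested genes, with a median of 0.11. Leaving out any 1 library gave 2 to 3 higher and 0 to 1 lower, a minimum fold of 1.2 gave 1 higher, and DESeq2 gave 5 higher and 2 lower. H2-Q1 (log2 fold change -0.22, edgeR adjusted p = 0.0697) and Fcgrt (-0.50, edgeR adjusted p = 0.0882) did not pass, though every library labelled KO was below every WT library. Cd1d1, which presents lipids to NKT cells, averaged 10.03 ± 0.555 FPKM in libraries labelled KO and 6.87 ± 0.268 FPKM in WT (SD, n = 3; log2 fold change 0.53, edgeR adjusted p = 0.0038). H2-M2 read 5.94, 5.67 and 5.87 FPKM in libraries labelled KO, against 4.02, 3.25 and 3.66 in WT (log2 fold change 0.66, edgeR adjusted p = 0.00809). H2-T24 (0.17, edgeR adjusted p = 0.0268) and H2-Q5 (0.25, edgeR adjusted p = 0.0291) also rose. H2-T24 lost its call in all 6 fits that left out a library (edgeR adjusted p between 0.0585 and 0.0893). H2-Q5 lost its call in 5 of them (edgeR adjusted p between 0.0554 and 0.1).

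Of 23 transcription factors and interferon pathway genes that feed class I promoters, 5 passed as higher and 0 as lower, with a median of 0.10. Over all tested genes 7.01% passed as higher and 5.67% as lower, and 27% of abundant genes passed in either direction. With 1 library left out 4 to 5 were higher and 0 lower, except that 2 were lower without WT replicate 3. DESeq2 gave 8 higher and 2 lower, and a minimum fold of 1.2 gave 3 higher. Ciita, the class II transactivator and a relative of Nlrc5, read 8.96, 9.75 and 9.05 FPKM in libraries labelled KO, against 5.23, 5.34 and 5.27 in WT (log2 fold change 0.79, edgeR adjusted p = 0.000179). Jak2, a kinase of the interferon gamma receptor, rose by 0.38 (edgeR adjusted p = 0.000689). Irf2 rose by 0.51 (edgeR adjusted p = 0.000839), and Nfkb1 rose by 0.17 (edgeR adjusted p = 0.0118). None of the RFX subunits that NLRC5 joins on the X box passed. Rfx5 averaged 3.99 ± 0.384 FPKM in libraries labelled KO and 3.09 ± 0.274 FPKM in WT (SD, n = 3; log2 fold change 0.35, edgeR adjusted p = 0.0696). Rfxank averaged 2.38 ± 0.171 FPKM in libraries labelled KO and 2.88 ± 0.0960 FPKM in WT (SD, n = 3; -0.29, edgeR adjusted p = 0.0646). The groups did not overlap for either gene, which leaned in opposite directions, and they overlapped for Rfxap. Irf9, of the interferon pathway, leaned lower without overlap and did not pass (-0.30, edgeR adjusted p = 0.0767). Irf1, an activator of class I genes, did not pass either (log2 fold change 0.71, SE 0.23, edgeR adjusted p = 0.108). It read 105, 106 and 107 FPKM in libraries labelled KO, against 80.9, 70.8 and 40.6 in WT, so no library overlapped but the WT libraries spread widely.

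**Figure D5:**
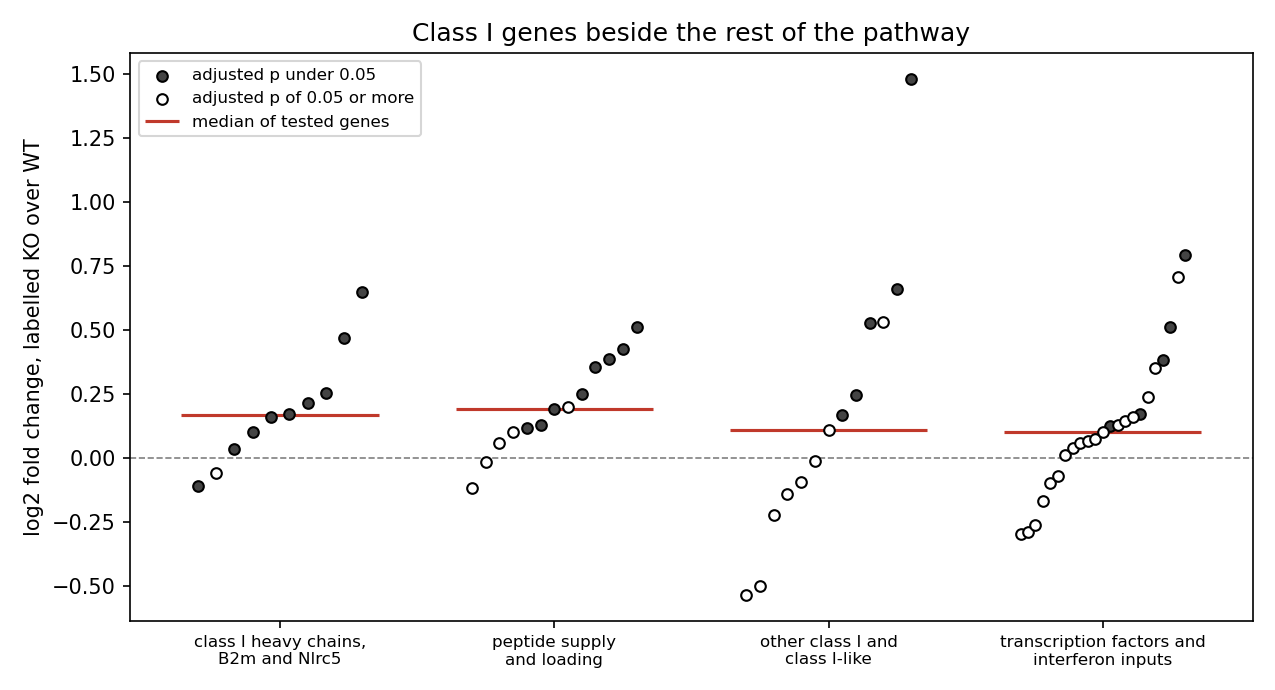
Log2 fold changes, labelled KO over WT, of the tested genes of 4 lists, each gene a point in rising order; filled points passed the threshold and red lines are medians. The medians are 0.17, 0.19, 0.11 and 0.10.

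The pattern over the 6 libraries most like that of H2-K1, by Pearson correlation of log2(FPKM + 0.1) over 3967 genes with a mean FPKM of at least 10, belonged to Fcgr1, Bcl6 and Fcgr4 (r = 0.999 each). For Nlrc5 these were Manba, Hnrnpul2 and Klf2 (r = 0.997, 0.997 and 0.997), and for B2m they were Ckb, Tmem104 and Tmem106a (r = 0.997, 0.993 and 0.993). The 6 points of each correlation fall into the same 2 groups, and 465 genes had r above 0.95 with H2-K1, so these values are a description only.

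The libraries held the transcripts of macrophages, with Csf1r, Adgre1, Cd68, Itgam, Mertk, Lyz2, Fcgr1 and Spi1 all tested. Of these 8 markers, 4 passed as higher and 2 as lower, beside 7.01% higher and 5.67% lower over all tested genes. Among genes whose mean log2 CPM reached 5, 27% passed in either direction. The summed level of the 8 markers was 8421 to 8513 FPKM in libraries labelled KO, against 16369 to 16716 in WT. Lyz2, which encodes lysozyme, fell by 1.26 on the log2 scale and makes that gap: the other 7 markers summed to 2437 to 2487 FPKM in libraries labelled KO, against 2285 to 2370.3 in WT. That sum holds markers that moved both ways. Adgre1, the other marker called lower, averaged 396 FPKM in libraries labelled KO and 492 FPKM in WT (log2 fold change -0.33, edgeR adjusted p = 0.000368). Csf1r, Mertk, Fcgr1 and Spi1 were the 4 called higher. T and NK cell markers, whose cells also carry class I, summed to 16.6 to 17.2 FPKM in libraries labelled KO, against 13.8 to 15.6 in WT, with 0 of 9 called. B and plasma cell markers summed to 1.67 to 1.87 FPKM in libraries labelled KO, against 2.04 to 2.27 in WT, with 0 of 5 called. Dendritic cell markers summed to 1.6 to 1.9 FPKM in libraries labelled KO, against 1.23 to 1.75 in WT, with Siglech at 0 counts in every library. Neutrophil markers summed to 43.1 to 53.0 FPKM in libraries labelled KO, against 49.4 to 56.2 in WT, with Mpo the 1 of 5 tested that was called (higher), a call lost in 4 of 6 fits that left out a library. Stromal markers summed to 1.62 to 1.83 FPKM in libraries labelled KO and 1.53 to 1.85 in WT, with Dcn the 1 of 5 called (higher), a call lost in 5 of those 6 fits. The part of other cell types in the class I values was not tested.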

How the data were processed

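The poly(A) RNA of 6 macrophage samples was sequenced, 3 labelled KO and 3 WT. The tools named, per the submitters' processing notes, are StringTie 1.3.4d, HISAT2 2.0.4 and cutadapt 1.9, with the mm10 build. Settings, strand and annotation release: not given in the sources used here. Per the file headers, the authors deposited FPKM and an estimated count per gene and library. The deposited FPKM divides counts by the union of a gene's annotated exons: CPM per kilobase of GENCODE M21 union length came to 1.13 times FPKM, within 2% for 98.8% of values over 7606 genes with a mean count of at least 1000. Depth was 67280390 to 77997742 counts.

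Rounded estimated counts went into edgeR 4.0.16 under R 4.3.3 (TMM, filterByExpr, glmQLFit, glmQLFTest, Benjamini-Hochberg over 16256 genes, called at an adjusted p under 0.05). The 95% limits use 4 residual degrees of freedom. Alternatives were DESeq2 1.42.0, other scalings, filters and a minimum fold of 1.2, limma 3.58.1 on log2(FPKM + 0.1, 1 or 0.01), a replicate block and leaving out each library. Shared stretches and lengths used GENCODE M21 transcripts. The genes named are the 10 class I genes, Mettl3, up to 4 called genes by adjusted p of each pathway list (the 2 of highest FPKM where none was called), and 3 genes of most similar pattern. Rfx5, Rfxank, Rfxap, Irf1, Irf9, H2-Q1, Fcgrt, Mpo, Dcn and Siglech were named after their values were seen. So were Psmb8, Psmb9, Psmb10, Psme1, Psme2, Erap1 and Canx, and H2-Q8 and H2-Q9 were named after their absence was seen. Members and lists were chosen with earlier results of these data known.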

Additional observations from a re-analysis of the deposited data

How the results depend on the processing

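All 150 combinations of 10 class I genes and 15 alternatives kept the direction of the fold change; 111 kept their side of the threshold, 38 lost the call and 1 gained it. Of the class I genes, 8 were called higher and 1 lower. With 1 library left out, 5 were higher and 1 lower in every such fit (each holds fewer samples), and 1244 to 1339 genes were called over the whole table in place of 2060. With no filter on counts 5 were higher; the cause was not tested. With a minimum fold of 1.2, a test that asks for more, 2 were higher and 0 lower, and 306 genes were called over the table. Limma on log2(FPKM + 1) called 0 lower (7 higher) and the filter at a mean FPKM of 1 called 2 lower (H2-T23 and B2m); the cause was not tested. With the replicate number as a block, 5 were higher and 1 lower, and 1012 genes were called over the table. The numbers did not pair the libraries: deviations of same-numbered libraries correlated at -0.02, -0.01 and 0.02, and not every library correlated best with its own number. Rescaling FPKM to the longest coding transcript moved 5 genes to another place in the order of levels in libraries labelled KO and 2 in WT, since it changes the length alone; that order is a description. H2-D1, with 457614 to 512050 counts in libraries labelled KO and 432945 to 437789 in WT, was called at a ratio of 1.02.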
